A study of Mus musculus with 6 samples.

Results

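Cytokine receptors are the means by which a T cell reads the soluble signals of its neighbours, and macrophages are a major source of those signals. The 10 genes described here encode receptor chains for IL-4, IL-7, IL-10, IL-12, IL-18, IL-21, IL-27 and the IL-6 family: Il4ra, Il7r, Il10ra, Il12rb1, Il12rb2, Il18r1, Il18rap, Il21r, Il27ra and Il6st. They were chosen by name and function, not by a threshold on a measured value, but with earlier results of these data known. They are 10 of the 55401 genes of the count table. RNA had been sequenced from mouse T cells kept in supernatant of macrophages, 3 samples with supernatant of NFL-activated macrophages (NFL group) and 3 with supernatant of control macrophages (control group). NFL is neurofilament light chain, a structural protein of axons that leaks from damaged nerve. The comparison asks how the T cell transcriptome differs in supernatant of macrophages that have met NFL.

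According to the study's description, the T cells came from mouse spleen and were selected with CD8a beads. The macrophages were grown from CD11b+ spleen monocytes with 50 ng/mL M-CSF for 7 days, and those of the NFL group then received 5 µg/mL NFL for 24 h. This NFL was prepared from sciatic nerve lysate by freeze-thawing, and its purity is not given. Both supernatants were filtered and made up 50% of RPMI-1640 medium with 2% FBS. Any NFL or other nerve material left in the supernatant would reach the T cells of the NFL group only. Its effect and that of macrophage products cannot be told apart here. The study's methods name female C57BL/6 and NOD-SCID mice for its animal experiments, but the strain and age of the spleen donors of these samples are not given in the sources used here. It is also not stated whether the 3 samples of a group came from separate animals or cultures. The p-values below therefore measure the spread between these samples, which may be technical.

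Total counts were 15843045 to 24639756 per library. Replicates lay closer to each other than to the other group: the chi-square of a pair of libraries, divided by its degrees of freedom, was 1.89 to 3.41 within groups and 4.75 to 5.36 between them. The T cell markers Trbc1 (5434 to 8632 counts) and Thy1 (25706 to 42063 counts) were abundant. Zap70 (3025 to 4948), Cd3e (815 to 1529), Trbc2 (857 to 1455) and Cd247 (628 to 1159) lay lower. Trac (16 to 61), Cd3d (37 to 107), Lck (59 to 123) and Cd3g (104 to 218) were low. Cd8a had 51 to 109 counts and Cd8b1 14 to 37, below the 409 to 631 counts of Cd4, and Cd2 and Cd5 were at 0 in every library. Per kilobase of exon, the mean levels were 1.06 CPM for Cd8a and 6.33 CPM for Cd4, an order that goes against the CD8a selection. The cells are called T cells below, as in the sample labels. Levels are given as CPM, read counts scaled to the library size with TMM factors.

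Most of these receptors work as pairs of chains. IL-12Rβ1, encoded by Il12rb1, joins IL-12Rβ2, encoded by Il12rb2, to bind IL-12, a macrophage and dendritic cell cytokine that drives T cells towards interferon-γ through the kinases JAK2 and TYK2 and the factor STAT4. IL-18 is bound by the chains encoded by Il18r1 and Il18rap, which belong to the IL-1 receptor family and signal through the adaptor MyD88, and IL-12 and IL-18 are known to act together on interferon-γ. The chains for IL-4, IL-7 and IL-21 each pair with the common γ chain, encoded by Il2rg. Il6st encodes gp130, which IL-6 and IL-27 receptors share, and Il27ra its partner for IL-27. Il10ra encodes the ligand-binding chain for IL-10, which restrains inflammation.

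Class I cytokine receptors carry in their cytokine-binding part a short conserved box of tryptophan, serine, any residue, tryptophan and serine, and its codons were found in frame in the coding sequences of 6 of the 10 genes (GENCODE M21, GRCm38). The stretches are printed to show how nearly alike the box is in chains that bind different cytokines, with the 15 bases of the box in capitals:
Il4ra: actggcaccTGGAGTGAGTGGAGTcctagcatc
Il7r: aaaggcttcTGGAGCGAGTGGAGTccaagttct
Il12rb1: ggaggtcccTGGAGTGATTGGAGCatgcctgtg
Il12rb2: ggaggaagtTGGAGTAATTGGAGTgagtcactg
Il21r: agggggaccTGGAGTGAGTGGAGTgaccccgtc
Il6st: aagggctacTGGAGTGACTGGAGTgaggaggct

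Il4ra and Il21r have the same box letter for letter, and they are neighbours on chromosome 7. No exact match was found in Il10ra, Il18r1, Il18rap or Il27ra. Il10ra encodes a class II receptor and the IL-18 receptor genes encode immunoglobulin-like receptors, families defined by other features, and a search for exact codons says nothing of a variant box in Il27ra.

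Within the 8 receptor genes with enough counts to test, Il12rb2 rose in the NFL group, Il18r1 and Il18rap fell, and the other 5 did not pass the test. Those 5 were Il12rb1, Il4ra, Il10ra, Il6st and Il21r. Il27ra and Il7r were too low to test. Each gene was tested by the quasi-likelihood method of edgeR, and p-values were adjusted after Benjamini and Hochberg over 14082 genes, with calls made at an adjusted p under 0.05. Of all genes tested, 7.00% passed, 3.47% as higher and 3.53% as lower in the NFL group, against 3 of the 8 receptor genes. The choice was made with earlier results of these data known, so such shares are a description and no test. Without NFL replicate 3 the count was 508 of all genes in place of 986, with Il12rb2 the only receptor gene among them, and without NFL replicate 2 it was 616. Scaling by library size alone called 372 genes higher and 600 lower in place of 489 and 497, and the same 3 receptor genes. The median log2 fold change (NFL over control) of the 8 was -0.04 and that of all genes tested 0.00, while the median absolute log2 fold change was 0.23 for the receptor genes and 0.09 for all genes.

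**Figure D1:**
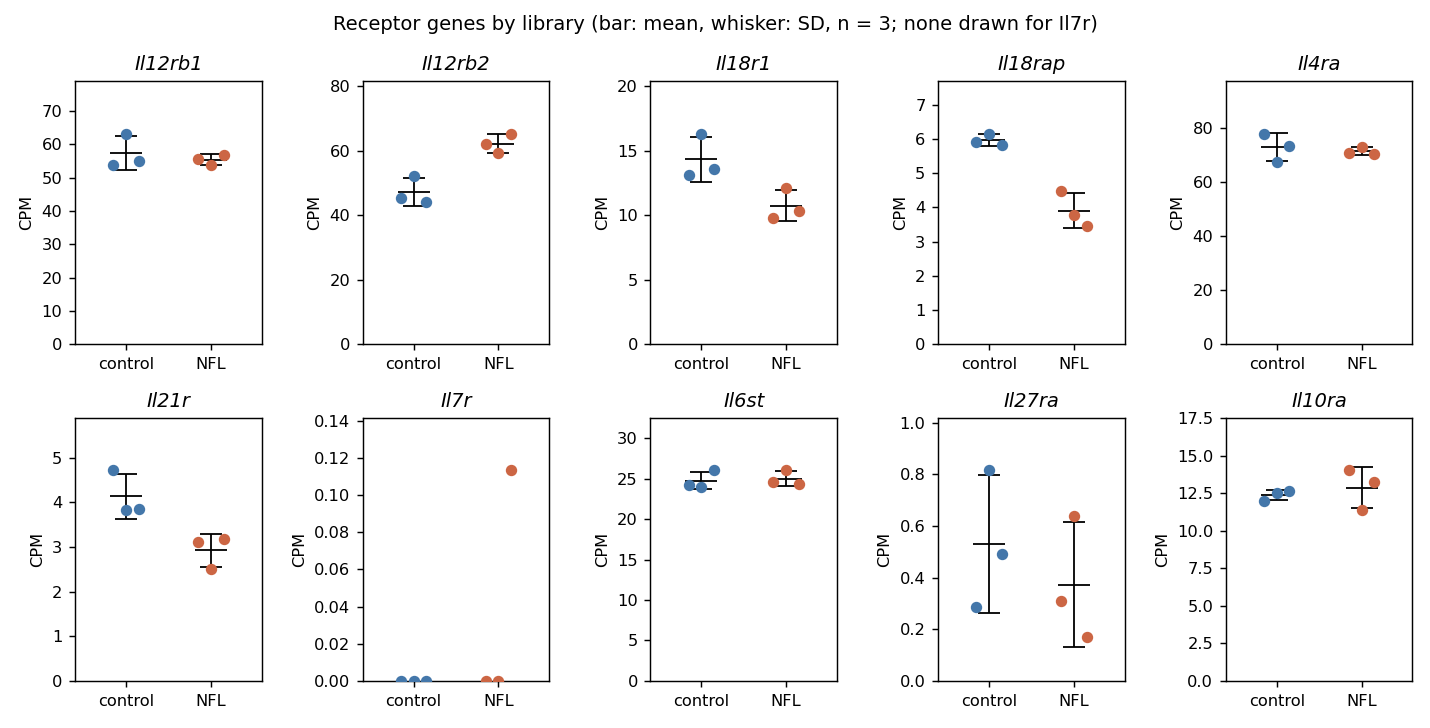
CPM of each of the 10 receptor genes in each library, on a separate axis per gene, with the 3 control samples (blue) and the 3 NFL samples (orange) as points and the mean ± SD as a bar with whiskers, which is not drawn for Il7r. Il12rb2 is separated upwards, Il18r1, Il18rap and Il21r are separated downwards, and the groups overlap for the others.

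Il12rb2, the signalling chain that restricts IL-12 responses to activated T cells, measured 45.4, 52.3 and 44.1 CPM in the control samples and 62.2, 59.3 and 65.3 CPM in the NFL samples. Every NFL sample lay above every control sample. The means were 47.3 ± 4.38 CPM and 62.3 ± 3.01 CPM (SD, n = 3), and the fitted log2 fold change was 0.41 (SE 0.06, 95% interval 0.29 to 0.53, edgeR adjusted p = 1.48e-06). The rise amounted to 1.32-fold on 833 to 1153 counts per library. It kept its direction and passed the threshold in each of the 13 other settings and left-out libraries tried.

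Il12rb2 (ENSMUSG00000018341.12) lies on chromosome 6 at 67291318 to 67376188 on the minus strand (GRCm38), and 6419 of its bases overlap Serbp1 on the opposite strand, 1519 of them exonic in both genes. Serbp1 encodes an RNA-binding protein and took far more reads, at 2728 ± 56.0 CPM in the control group and 2837 ± 32.2 CPM in the NFL group (SD, n = 3). Whether strand was used in counting is not given in the sources used here, so the level of Il12rb2 is uncertain by the reads that the pair may share. The log2 fold change of Serbp1 was 0.06 (95% interval 0.01 to 0.10, edgeR adjusted p = 0.169), below the whole interval of Il12rb2, and its part in the Il12rb2 count was not tested.

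Il12rb1, the chain shared by the receptors of IL-12 and IL-23, measured 53.9, 63.2 and 55.0 CPM in the control samples and 55.7, 53.8 and 56.8 CPM in the NFL samples. The groups overlapped. Their means were 57.3 ± 5.09 and 55.4 ± 1.54 CPM (SD, n = 3), and the log2 fold change of -0.04 had a 95% interval of -0.16 to 0.07 (edgeR adjusted p = 0.777). A rise of the size seen in Il12rb2 lies outside this interval.

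Scaling and depth cancel in the ratio of both chains. The ratio of Il12rb2 to Il12rb1 CPM was 0.803 to 0.843 in the control samples and 1.10 to 1.15 in the NFL samples. On the log2 scale the ratios averaged -0.28 ± 0.04 and 0.17 ± 0.03 (SD, n = 3), a difference of 0.45. The exact two-sided permutation test gave p = 0.1, which is the smallest value that 3 against 3 samples allow (0.167 after adjustment over the 5 ratios tested).

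Il18r1, the ligand-binding chain for IL-18, measured 13.1, 16.3 and 13.6 CPM in the control samples and 9.82, 12.1 and 10.3 CPM in the NFL samples. All NFL samples lay below all control samples, the nearest pair being 12.1 and 13.1 CPM. With means of 14.3 ± 1.74 and 10.7 ± 1.20 CPM (SD, n = 3), the log2 fold change was -0.40 (SE 0.11, 95% interval -0.63 to -0.18, edgeR adjusted p = 0.017). The call rested on few libraries: without control replicate 2 the edgeR adjusted p was 0.0977, and without NFL replicate 1 or without NFL replicate 3 it was 0.11.

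Il18rap, the accessory chain that completes the IL-18 receptor, measured 5.89, 6.15 and 5.81 CPM in the control samples and 4.47, 3.78 and 3.46 CPM in the NFL samples. There was no overlap between the groups. The means of 5.95 ± 0.18 and 3.90 ± 0.52 CPM (SD, n = 3) gave a log2 fold change of -0.61 (SE 0.17, 95% interval -0.95 to -0.27, edgeR adjusted p = 0.0181). On 61 to 145 counts per library, counting error alone was 10.1% of the level. Without control replicate 1 the edgeR adjusted p was 0.0563, without NFL replicate 2 it was 0.073 and without NFL replicate 3 it was 0.126, while the direction stayed the same.

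Both chains of the IL-18 receptor thus fell, and whether they fell equally could not be resolved. The log2 ratio of Il18rap to Il18r1 was -1.15, -1.41 and -1.23 in the control samples and -1.13, -1.68 and -1.58 in the NFL samples. These groups overlapped (difference -0.20, exact two-sided permutation p = 0.4). The genes stand side by side on chromosome 1, Il18r1 (ENSMUSG00000026070.15) at 40465552 to 40500854 and Il18rap (ENSMUSG00000026068.11) at 40515362 to 40551705, both on the plus strand of GRCm38 and 14.5 kb apart. On the outer side of Il18r1 is Il1rl1, the receptor for IL-33, whose 7 to 23 counts per library were too few for the test, and beyond Il18rap lies Slc9a4, a sodium-proton exchanger with 0 to 3 counts.

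Il12rb2 and Il18r1 were called in opposite directions, while Il12rb1 was not called. The ratio of Il12rb2 to Il18r1 CPM was 3.20 to 3.47 in the control samples and 4.90 to 6.34 in the NFL samples. The log2 ratio rose from 1.72 ± 0.06 to 2.54 ± 0.21 (SD, n = 3), a difference of 0.82 with no overlap (exact two-sided permutation p = 0.1, the smallest possible, and 0.167 after adjustment over the 5 ratios).

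**Figure D2:**
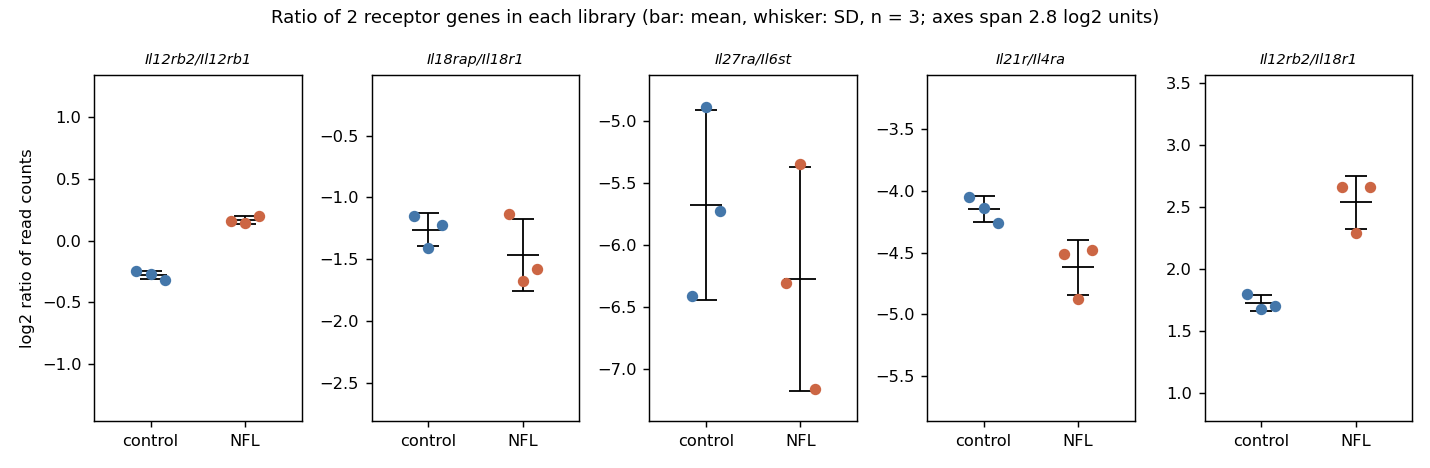
Log2 ratio of the read counts of paired receptor genes in each library, a panel per ratio with axes of equal span, 3 control and 3 NFL samples as points, and the mean ± SD as a bar with whiskers. The ratios of Il12rb2 to Il12rb1 and of Il12rb2 to Il18r1 are higher in all 3 NFL samples, that of Il21r to Il4ra is lower in all 3, and the ratios of Il18rap to Il18r1 and of Il27ra to Il6st overlap.

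Promoter sequences, 250 bases up to the RefSeq transcription start (GRCm38.p6), were at hand for 7 of the 10 genes, and those of the 3 genes that changed are printed because their RNA is what moved. Capitals mark the palindromic STAT motifs that a search of both strands found, TTCNNNGAA in Il12rb2 and TTCNNNNGAA in the IL-18 receptor genes, and Il18r1 is shown at the most upstream of its 3 starts:
Il12rb2, chr6:67376189-67376438, minus strand: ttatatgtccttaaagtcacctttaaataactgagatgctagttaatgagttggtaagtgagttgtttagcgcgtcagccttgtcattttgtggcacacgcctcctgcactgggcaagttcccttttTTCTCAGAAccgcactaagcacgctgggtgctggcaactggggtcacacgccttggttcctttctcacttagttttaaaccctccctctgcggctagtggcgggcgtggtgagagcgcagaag
Il18r1, chr1:40465302-40465551, plus strand: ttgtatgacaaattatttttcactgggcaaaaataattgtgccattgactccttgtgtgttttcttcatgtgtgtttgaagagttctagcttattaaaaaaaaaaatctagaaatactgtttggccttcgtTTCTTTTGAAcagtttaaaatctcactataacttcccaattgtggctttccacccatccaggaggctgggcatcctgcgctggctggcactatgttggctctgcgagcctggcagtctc
Il18rap, chr1:40515112-40515361, plus strand: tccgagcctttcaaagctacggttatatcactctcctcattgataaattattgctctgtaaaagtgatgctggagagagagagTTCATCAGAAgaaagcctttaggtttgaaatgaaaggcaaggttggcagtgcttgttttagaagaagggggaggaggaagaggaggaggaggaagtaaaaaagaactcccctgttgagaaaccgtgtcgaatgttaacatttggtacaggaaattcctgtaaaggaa

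The match in Il12rb2 lies 123 to 115 bases before the start, that in Il18r1 119 to 110 and that in Il18rap 167 to 158. The windows of the other Il18r1 starts are not printed. Start 2 held TTCNNNNGAA at 188 to 179, and start 3 held TTCNNNGAA at 219 to 211 and at 152 to 144 and no TTCNNNNGAA. The spacer found in Il18r1 thus depends on the start. Of 32851 promoter windows of the same length, 7.02% hold TTCNNNGAA and 5.85% hold TTCNNNNGAA. The search covered 6 motifs, the others being TGANTCA (6.75% of windows), TGTGGT (14.0%), AGGTGTGA (1.12%) and the NF-κB decamer (7.25%), and the STAT motifs were counted separately by spacer and do not overlap others here. Il7r, which was not counted above the floor, also held TTCNNNGAA, Il21r held TGTGGT, and Il4ra and Il6st held none. These matches describe the letters of the windows.

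Il21r, the receptor chain for IL-21, a cytokine of helper T cells, measured 4.71, 3.83 and 3.85 CPM in the control samples and 3.11, 2.50 and 3.17 CPM in the NFL samples. The groups did not overlap, yet the test was not passed. The means were 4.13 ± 0.51 and 2.93 ± 0.37 CPM (SD, n = 3), with a log2 fold change of -0.50 (SE 0.20, 95% interval -0.91 to -0.10, edgeR adjusted p = 0.137). With 43 to 116 counts per library it had the fewest counts of the 8 genes tested. Among all genes tested, 22.7% had groups that did not overlap, 11.5% with the NFL samples higher and 11.2% with them lower, against 4 of the 8 receptor genes.

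Il4ra, which binds IL-4 and signals through STAT6, had 78.0, 67.5 and 73.6 CPM in the control samples and 70.8, 73.2 and 70.6 CPM in the NFL samples. The groups overlapped. Its log2 fold change of -0.04 had a 95% interval of -0.14 to 0.07 (edgeR adjusted p = 0.776). Il4ra lies at 125552120 to 125579474 and Il21r at 125603429 to 125633570 on the plus strand of chromosome 7 (GRCm38), with 24.0 kb between them. The log2 ratio of Il21r to Il4ra averaged -4.15 ± 0.11 in the control samples and -4.62 ± 0.22 in the NFL samples (SD, n = 3), without overlap (difference -0.47, exact two-sided permutation p = 0.1, the smallest possible).

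Il2rg, the common γ chain that completes the receptors of IL-4, IL-7 and IL-21, measured 85.3, 76.4 and 85.0 CPM in the control samples and 101.9, 96.9 and 95.4 CPM in the NFL samples. It rose with no overlap between groups (log2 fold change 0.25, SE 0.05, edgeR adjusted p = 1.66e-04). Il4ra and Il21r, which share this chain, did not pass the test.

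Il7r, the IL-7 receptor chain that naive and memory T cells depend on for survival, was at 0 counts in 5 libraries and at 2 in NFL replicate 3. A count of 0 allows up to 3 counts, which is 0.122 to 0.189 CPM in these libraries, so every library was at or under the floor and no fold is given. Of the list of 12 regulators of Il7r and targets of FOXO1, 4 were likewise at 3 counts or fewer in every library, among them Klf2, S1pr1 and Ets1. Of the 7 genes of this list that were tested, 3 were called, 42.9% against 7.00% of all genes tested. Ccr7, a lymph node homing receptor, rose from 1.36 to 2.98 CPM (log2 fold change 1.14, edgeR adjusted p = 0.00453). The transcription factors Runx3 (-0.14, edgeR adjusted p = 0.00163) and Runx1 (-0.29, 0.0175) fell on the log2 scale. Foxo1 itself measured 67.5 CPM in the control group and 70.7 CPM in the NFL group (edgeR adjusted p = 0.478).

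Il10ra measured 12.0, 12.6 and 12.7 CPM in the control samples and 14.0, 11.4 and 13.3 CPM in the NFL samples, with the control samples inside the range of the NFL samples. The log2 fold change was 0.06 (95% interval -0.16 to 0.27, edgeR adjusted p = 0.843). Il10rb, the partner without which IL-10 does not signal, had at most 1 count in any library.

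Il6st, encoding gp130, had the smallest fitted change of the 8 genes tested. It measured 24.3, 24.0 and 26.0 CPM in the control samples and 24.7, 26.0 and 24.4 CPM in the NFL samples, a log2 fold change of 0.01 (95% interval -0.14 to 0.17, edgeR adjusted p = 0.962). Il27ra, its partner for IL-27, had 7, 13 and 12 counts in the control samples and 5, 11 and 3 in the NFL samples, too few for the filter. As CPM the values overlapped (0.285, 0.816 and 0.491 against 0.311, 0.640 and 0.170, exact two-sided permutation p = 0.5). At this depth a change of Il27ra was not detectable.

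**Figure D3:**
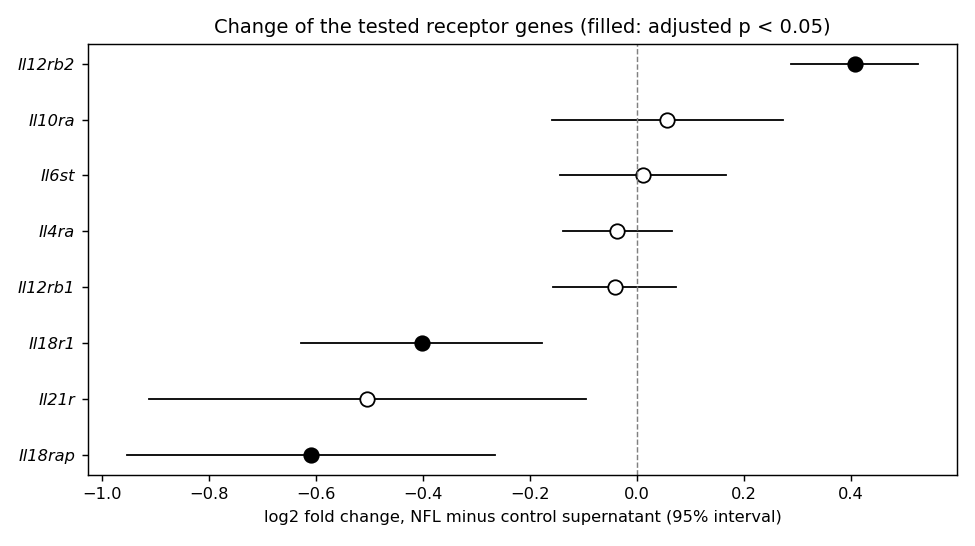
Log2 fold change (NFL over control) with its 95% interval for the 8 receptor genes tested by edgeR, called genes as filled points. The intervals of Il12rb2, Il18r1, Il18rap and Il21r exclude 0, that of Il21r without passing the adjusted threshold, and those of Il10ra, Il6st, Il4ra and Il12rb1 include 0.

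Levels can be compared between genes only per length, and were divided by the bases of all annotated exons of each gene. On this scale the 10 genes fell into tiers. Il12rb2 averaged 14.4 CPM per kilobase over the 6 libraries (range 11.6 to 17.2), Il12rb1 13.7 (13.1 to 15.4) and Il4ra 12.1 (11.3 to 13.0), which put these 3 above 66.8% to 71.7% of the 14060 tested genes with a length. Il12rb2 and Il12rb1 overlapped in the control samples and not in the NFL samples, where Il12rb2 was higher. Il12rb1 lay just above Il4ra without overlap. The place of Il12rb2 is uncertain, since 1519 of its 3794 exon bases overlap exons of Serbp1.

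A middle tier held Il10ra at 3.62 CPM per kilobase (3.26 to 4.01), Il18r1 at 2.60 (2.04 to 3.39) and Il6st at 2.24 (2.17 to 2.35). Il18r1 was above Il6st in the control samples and overlapped it in the NFL samples. Il21r followed at 1.06 CPM per kilobase (0.75 to 1.42) and Il18rap at 0.73 (0.51 to 0.91), their order the same within either group. Il27ra, at 0.129, was above only 1.38% of tested genes, and Il7r stood last.

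**Figure D4:**
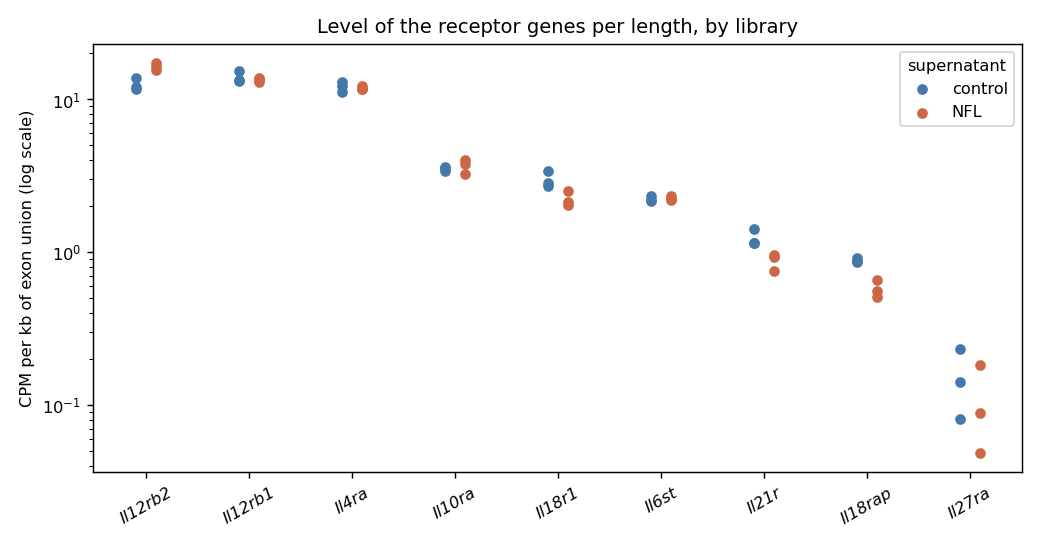
CPM per kilobase of annotated exon on a log10 axis, 1 point per control or NFL library, genes ordered by mean level. Il7r is left out because it was at 0 counts in 5 libraries. Il12rb2, Il12rb1 and Il4ra form the upper tier, and Il27ra lies under the others.

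The patterns most like those of the 3 genes that changed were searched among 9142 genes whose log2 CPM averaged 3 or more, by Pearson's r of log2 CPM over the 6 libraries. Il12rb2 was most like Grk2 (r = 0.998), Ccne2 (0.996) and Tapbp (0.992). For Il18r1 the nearest were Bcat2 (0.991), St6galnac4 (0.984) and Elmo2 (0.984), and for Il18rap Retsat (0.995), Satb1 (0.994) and Aes (0.993). With 6 libraries in 2 groups, such values are a description of likeness and carry no test.

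The other receptor genes are scattered over the genome (GRCm38): Il12rb1 at 70808449 to 70821424 and Il27ra at 84030294 to 84042589 on chromosome 8, Il10ra at 45253837 to 45269149 on chromosome 9, Il6st at 112464070 to 112510086 on chromosome 13 and Il7r at 9505788 to 9530176 on chromosome 15. Of the protein-coding genes next to the 10 loci, the 6 that could be tested and are no receptor gene of this set did not pass the threshold. Of all genes tested, 7.00% passed, so a lack of calls in 6 genes does not set these neighbours apart. Mast3, a kinase gene 3.4 kb from Il12rb1, had no overlap between groups (log2 fold change -0.11, edgeR adjusted p = 0.0868). Gtf3c1, a subunit of a transcription factor for RNA polymerase III 7.4 kb past Il21r, had a log2 fold change of -0.03 (edgeR adjusted p = 0.799). Nsmce1, a subunit of the SMC5/6 complex 60.5 kb before Il4ra, had one of 0.12 (0.66), and Arrdc2, Gadd45a and BC049352 had adjusted p-values of 0.63, 0.583 and 0.667. Il23r, 46.7 kb from Il12rb2 and the partner of Il12rb1 for IL-23, had 0 to 1 counts. The neighbours Capsl, Spef2, Tmprss13, Ankrd55, Il31ra, Rln3 and 2210011C24Rik had at most 8 counts in any library. Besides Il12rb2, exons overlap an opposite-strand gene in Il4ra, whose partner Gm44876 had at most 2 counts, and by 2 bases in Il27ra, whose partner is Palm3.

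Of the 10 partner chains on the list, 6 were at 3 counts or fewer in every library: Il10rb, Il13ra1, Il23r, Lifr, Osmr and Cntfr. Il6ra had 0 to 4 counts. Of the 3 tested, Il2rg rose, Il11ra1, the IL-11 receptor chain, measured 4.57 and 4.51 CPM (log2 fold change -0.01, edgeR adjusted p = 0.983), and Crlf2, the TSLP receptor chain that pairs with the IL-7 receptor, was called lower. Crlf2 had 16, 11 and 16 counts in the control samples and 1, 4 and 1 in the NFL samples (edgeR adjusted p = 0.0111). It passed the filter only through the control samples, so its call is no independent sign of a fall. The 2 calls among 3 tested partner chains are 66.7%, against 7.00% of all genes tested. So few chains cannot show a difference from that share.

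The ligands were measured here only as RNA of the T cells themselves, since the macrophages were not sequenced. Il12a, Il12b, Il18, Il7, Il21 and Il6 were at 3 counts or fewer in every library. Of 21 ligands and soluble inhibitors, 10 could be tested, 2 rose and none fell. Il23a, the p19 subunit of IL-23, measured 12.4, 15 and 12.1 CPM in the control samples and 21.2, 23.0 and 23.7 CPM in the NFL samples (log2 fold change 0.80, edgeR adjusted p = 1.96e-08). Ebi3, a subunit of IL-27, measured 1.30, 1.95 and 2.13 CPM against 4.10, 3.43 and 2.95 CPM (log2 fold change 0.97, edgeR adjusted p = 0.00981). The groups did not overlap for either gene, as for 22.7% of all genes tested, 11.5% with the NFL samples higher.

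None of the 10 tested JAK and STAT genes passed the threshold, against 7.00% of all genes tested. So few genes cannot show a difference from that share. Jak1, the kinase bound to gp130 and to the IL-4 and IL-10 receptor chains, averaged 476.3 CPM in the control group and 449.2 CPM in the NFL group (log2 fold change -0.09, edgeR adjusted p = 0.0702). The IL-12 receptor kinases gave 152.6 and 149.9 CPM for Jak2 and 48.3 and 49.1 CPM for Tyk2. Jak3, the γ chain kinase, had a log2 fold change of 0.09 (edgeR adjusted p = 0.434). Stat3 had -0.01 (0.936), Stat5a -0.11 (0.165) and Stat6 0.01 (0.944) on the same scale, and Stat2 and Stat5b were not called either. Stat4, through which IL-12 acts, had 1 to 3 counts in every library and could not be tested, whereas both IL-12 receptor chains had at least 833 counts. The T cell markers Cd2 and Cd5 were at 0 in every library too. Whether counts at the floor, of Stat4 or of other genes here, mean absence from the cells was not tested.

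Downstream of the IL-18 receptor, 11 of 11 adaptor and kinase genes were tested and 1 passed, 9.09% against 7.00% of all genes tested. Map3k7, encoding the kinase TAK1, rose from 130.3 ± 6.06 to 145.7 ± 5.82 CPM (SD, n = 3, log2 fold change 0.16, edgeR adjusted p = 0.00631). Myd88 measured 40.8 and 43.0 CPM (edgeR adjusted p = 0.565). In the IL-1 receptor family to which the IL-18 chains belong, 2 of 7 genes could be tested and none was called, Sigirr (log2 fold change -0.19, edgeR adjusted p = 0.257) and the decoy receptor Il1r2 (-0.06, 0.899).

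All 16 feedback inhibitors of cytokine signalling were tested and 1 passed, 6.25% against 7.00% of all genes tested. Pias3, an inhibitor of STAT3, fell from 28.1 to 23.6 CPM (log2 fold change -0.25, edgeR adjusted p = 0.0355). The rapidly induced inhibitors Socs1 (log2 fold change -0.03), Socs3 (-0.04) and Cish (0.06) did not pass the test.

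Of 26 genes known as STAT or cytokine targets in T cells, 22 were tested, 4 rose and 4 fell. That is 36.4% called against 7.00% of all genes tested. Ifng, encoding interferon-γ, measured 10.8, 8.66 and 12.5 CPM in the control samples and 19.9, 18.7 and 18.6 CPM in the NFL samples (log2 fold change 0.82, edgeR adjusted p = 1.15e-07). Havcr2, encoding the inhibitory receptor TIM-3, rose (0.19 on the log2 scale, edgeR adjusted p = 1.19e-04), as did the protease gene Furin (0.21, 0.00207). Id2 (-0.22, edgeR adjusted p = 3.95e-07) and Nfil3 (-0.17, 0.00348), both regulators of lymphocyte differentiation, fell on that scale. These targets moved in both directions, and the 22 tested genes had a median log2 fold change of -0.03.

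Among 31 other cytokine receptor chains, 12 were tested, 1 rose and 4 fell, which is 41.7% called against 7.00% of all genes tested. Il2ra, the high-affinity IL-2 receptor chain, rose from 1647 to 1861 CPM (log2 fold change 0.18, edgeR adjusted p = 1.05e-06). Ifngr1 fell from 118.0 to 92.5 CPM (-0.35 on the log2 scale, edgeR adjusted p = 8.41e-09). Ifnar1 (-0.20, edgeR adjusted p = 0.00692), Il2rb (-0.12, 0.00807) and Il17ra (-0.15, 0.0299) also fell on that scale. The second chains of the 2 interferon receptors were too low to test, Ifngr2 with 0 to 5 counts per library and Ifnar2 with 0 in each. Over the 9 lists together, 22 of 93 tested genes were called, 10 higher and 12 lower (Crlf2 among them), which is 23.7% against 7.00% of all genes. Without NFL replicate 3 the count was 14. The lists too were chosen with earlier results of these data known, so their shares are a description and no test.

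**Figure D5:**
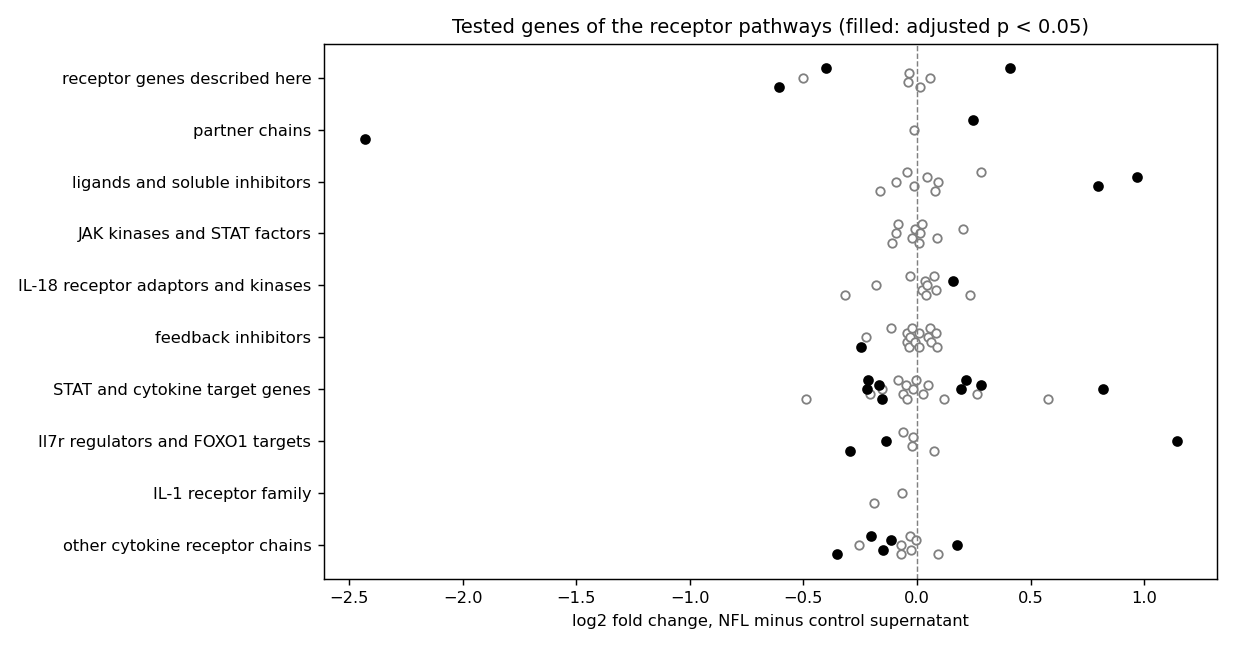
Log2 fold change (NFL over control) of every tested gene in the receptor gene set and the 9 related lists, 1 point per gene, with called genes as filled points. JAK and STAT genes lie near 0 with none called, and the target list spreads to both sides. In the other-receptor list 10 genes lie below 0 and 2 above, and Crlf2 is the lowest point at -2.43.

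Markers of other cell types in spleen were summed per library. Of 12 macrophage markers, 10 were at 3 counts or fewer in every library, and the sum was 24.6 to 27.5 CPM in the control samples and 19.2 to 23.5 CPM in the NFL samples, nearly all of it Cd68, which fell (log2 fold change -0.26, edgeR adjusted p = 0.0494). Among 6 natural killer cell markers, 4 were at the floor and the sum was 458.8 to 482.5 against 440.8 to 460.3 CPM, mostly Eomes, which activated T cells also express. Klrb1c fell from 31.7 to 22.4 CPM (log2 fold change -0.51, edgeR adjusted p = 2.43e-06), while Eomes was not called (-0.04, 0.486). The sum of 15 T cell markers was 2379 to 2479 CPM in the control samples and 2322 to 2415 CPM in the NFL samples, overlapping. Most of that sum was Thy1, with means of 1672 CPM in the control group and 1613 CPM in the NFL group. Of 13 T cell markers tested, 11 were not called, and Cd3e (log2 fold change -0.28, edgeR adjusted p = 5.72e-04) and Zap70 (-0.12, 0.0282) fell. That is 15.4% called against 7.00% of all genes tested. Of the 13 tested, 10 had a log2 fold change below 0 and 3 above, with a median of -0.14. Among those not called, Lck had -0.38 and Cd247 -0.16, while Trbc1 had 0.09 and Cd3d 0.17. Of 8 B cell markers, 4 were at the floor, Ms4a1 among them. The B cell sum was 16.6 to 17.8 CPM in the control samples and 17.9 to 19.7 CPM in the NFL samples, without overlap. Pax5 (138 to 246 counts) and Cr2 (53 to 140 counts) were detected. None of the 4 B cell markers tested was called, against 7.00% of all genes tested. The dendritic cell sum was 1.87 to 2.95 against 1.47 to 2.86 CPM, and the erythroid sum 1.32 to 1.47 against 0.99 to 1.99 CPM. The part of these shifts in the receptor values was not tested. In bulk RNA, fewer cells carrying a receptor and less receptor RNA per cell cannot be told apart.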

How the data were processed

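The authors made poly(A)-selected Illumina libraries and deposited raw read counts of 55401 genes for 6 samples, without normalization or pooling. The submitters' processing notes name GRCm39, R 4.2.1 and limma 3.54.2, while 54349 identifiers with their versions equal those of GENCODE M21 (GRCm38), which gave coordinates and exon lengths here. Aligner, counter and strand use are not given in the sources used here. Symbols matched 55141 identifiers.

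Counts were tested in R 4.3.3 with edgeR 4.0.16 (filterByExpr by group, minimum count 10 and total 15, TMM, quasi-likelihood test, Benjamini-Hochberg over 14082 genes, threshold 0.05). The common dispersion was 0.00121. Chain ratios were tested by exact two-sided permutation, with a pseudocount of 0.1 CPM in permutation tests of single genes. Counting errors and floors (3 counts) cover counting error only. The code was tested on simulated data. Alternatives used DESeq2 1.42.0, limma 3.58.1 voom, other scalings and filters, a replicate block and left-out replicates. No pairing of the samples by replicate number was seen, which does not exclude a shared origin. Sequences came from RefSeq and GENCODE.

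The receptor genes and lists were chosen with earlier results of these data known. Named were all 10 receptors, the testable partner chains, JAK and STAT genes, up to 5 called genes per other list with the lowest adjusted p, defining ligands or chains at the floor, 3 genes most like each of the 3 receptors with the lowest adjusted p, and neighbouring protein-coding genes. Genes named beyond this rule, such as Foxo1, Myd88, Sigirr and Socs1, were chosen after their values were seen. A planned ratio of Il10ra to Il7r was not formed because Il7r was at the floor. Some genes of the lists are not reported here by name.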

Additional observations from a re-analysis of the deposited data

How the results depend on the processing

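Il12rb2, Il18r1 and Il18rap were called with library size alone as scaling, with DESeq2's size factors, without a filter, with at least 10 counts in every sample, and by limma-voom. The Wald test of DESeq2 called Il12rb2 and Il18r1 and gave no adjusted p for Il18rap or Il21r. With each replicate left out, the receptor genes called numbered 1 to 3, all genes called 508 to 966, and related genes called 14 to 20. The replicate block called 1049 genes and the same 3 receptor genes, and in the blocked form of the chain ratios (differences 0.45, -0.20, -0.60, -0.47 and 0.82) the smallest possible exact sign-flip p is 0.25. Samples of equal replicate number deviated together with r from -0.01 to 0.05, so no pairing by number was seen in these values. With 3 samples per group, such values cannot exclude a shared animal or culture. Differences near 0 changed sign: Il6st was -0.0024 with library size alone, and leaving out replicates gave log2 fold changes of -0.0154 to 0.0494 for Il6st, -0.082 to 0.0163 for Il4ra, -0.0824 to 0.0283 for Il12rb1 and -0.0039 to 0.1419 for Il10ra. Il21r passed in none of the 12 alternatives that gave an adjusted p. The cause of these shifts was not tested, though each left-out fit has fewer samples. Depth limits Il27ra and Il7r, whose changes were not detectable.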
